A study of Mus musculus with 6 samples.

Results

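Long non-coding RNAs (lncRNAs) that were counted well enough to compare were taken from the RNA-seq of Hepa1-6 cells, a mouse hepatoma line, after depletion of Crebl2. The genes were selected on 2 properties: a GENCODE M21 gene type among lincRNA, antisense, processed_transcript, sense_intronic, sense_overlapping, bidirectional_promoter_lncRNA and macro_lncRNA, and a sum of at least 300 counts over the 6 libraries. Of 10152 annotated genes of these 7 types, 7330 had rows in the count tables, 3644 of them were at 0 counts in every library, 3209 had 1 to 299 counts, and 477 reached 300. These 477 lncRNA genes were among 38828 genes with rows. The summed count that chose them does not use the siRNA groups, but a gene can reach 300 through the group in which it is higher. Large changes among genes near the threshold are therefore not independent of the selection. The genes just inside the threshold were 2810455O05Rik with 301 counts and 4933407K13Rik and Gm19710 with 304 each, and those just outside were 1700058P15Rik with 299, Gm45894 with 298 and C030034I22Rik with 295.

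Cells received either siRNA against Crebl2 (3 libraries) or siRNA against Renilla Luciferase (Luc, 3 libraries), an enzyme that mouse cells lack, for 3 days with a lipid transfection reagent. All libraries came from the same unmodified cell line grown in high-glucose medium with serum, and were made from total RNA with a stranded kit. Crebl2 is a small bZIP protein of the CREB family, and the comparison addresses what its loss changes in hepatoma cells. Separate cultures are not stated in the labels and siRNA sequences are not named, so each p-value reflects the spread among these libraries, which may be technical.

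LncRNAs are transcripts longer than small RNAs that are not known to be translated. Some stay at their site of transcription and act on neighbouring genes or whole chromosomal domains, some build nuclear bodies such as paraspeckles, and some are spliced and exported carriers whose introns hold small nucleolar RNAs (snoRNAs) or microRNAs (miRNAs). Many start near a protein-coding promoter and run away from it, or overlap a coding gene on the opposite strand, so that each has to be read beside its neighbours.

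Total counts were 27082572 to 27710914 in Crebl2 siRNA libraries and 27385328 to 29158489 in Luc siRNA libraries. Crebl2 mRNA averaged 30.4 ± 1.7 CPM in Crebl2 siRNA libraries and 113 ± 0.86 CPM in Luc siRNA libraries (SD, n = 3 each). CPM is a count divided by the library's total, per 1e+06 counts, with totals scaled by TMM to even out composition. Crebl2 siRNA replicate 2 stood apart: genes of the mitochondrial genome held 0.859% of its counts (95% Wilson interval 0.855 to 0.862%, counting error only), against 2.09 to 2.23% in the other Crebl2 siRNA libraries and 2.31 to 2.52% in Luc siRNA libraries. Of the liver markers, Alb had 93528 counts and Afp 52964 over the 6 libraries, while Hnf4a and Serpina1a were at 0. Of 6 tested of 10 liver markers, Afp was raised (log2 fold change 0.36, edgeR test described below), and Fgb (-1.41), Foxa3 (-0.81) and Trf (-0.42) were lowered; their summed level was 1055 to 1137 CPM in Crebl2 siRNA and 1115 to 1197 CPM in Luc siRNA libraries. Of the markers of other cells, Col3a1, Pdgfrb, Tek and Ptprc were at 0. Some of these markers also moved with the siRNA, and the other listed genes had too few counts to test. Reads shared by several transcripts were apparently not counted, so a marker with 0 or few counts may still be expressed. Of 8 fibroblast and stellate markers, 3 were tested: Dcn was lowered (-0.55), Des raised (0.35) and Col1a1 not called (-0.22), with a summed level of 178 to 197 CPM in Crebl2 siRNA and 224 to 236 CPM in Luc siRNA libraries. Of 6 endothelial markers, Vwf alone was tested and was raised (33.0 to 37.1 CPM in Crebl2 siRNA and 19.6 to 22.9 CPM in Luc siRNA libraries). Of 7 macrophage and leukocyte markers, 2 were tested, Cd14 was lowered (-0.61) and Cd68 not called (0.12), with a summed level of 22.2 to 26.98 CPM in Crebl2 siRNA and 36.1 to 37.5 CPM in Luc siRNA libraries. Their part in the results was not tested. In such bulk samples, fewer cells of a type and less RNA per cell cannot be told apart.

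A deposited count belongs to 1 transcript row, and reads shared by several transcripts were apparently not counted, so a count reflects the bases that a transcript shares with no other. Of the 477 lncRNA genes, 435 drew over 90% of their counts from 1 row. The median was 800 counts over the 6 libraries, and 5 genes, Cct6a, Lncenc1, Zfas1, Xist and 2410006H16Rik, together held 35% of all counts on the 477. Per kilobase of unshared bases, the highest levels were those of Zfas1 (1111 CPM in Crebl2 siRNA and 1195 CPM in Luc siRNA cells) and 2410006H16Rik (999 and 1142 CPM). The processed_transcript type also holds genes that RefSeq calls protein-coding, as it does for 24 of the 477; Cct6a, which encodes a subunit of the cytosolic chaperonin TRiC, is one of them, and it is kept here under the type that GENCODE M21 gives it. The 477 genes together held 1.07 ± 0.039% of library counts in Crebl2 siRNA and 1.02 ± 0.0094% in Luc siRNA libraries (SD, n = 3 each). The difference of 0.0510 percentage points gave p = 0.1 in an exact two-sided permutation test, the smallest p that 3 against 3 libraries allow. Without Cct6a the shares were 0.914, 0.986 and 0.928% in Crebl2 siRNA and 0.924, 0.906 and 0.919% in Luc siRNA libraries, the groups overlapped, and the difference was 0.0267 percentage points (exact permutation p = 0.4). Without Crebl2 siRNA replicate 2 it was 0.0302 percentage points.

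Individual lncRNAs moved in both directions after Crebl2 depletion. Each gene was tested with edgeR's quasi-likelihood test, p-values were adjusted (Benjamini-Hochberg) over all 11616 genes tested, and a gene was called raised or lowered at an adjusted p under 0.05. Of the 477 lncRNA genes, all of which were tested, 194 were called (40.7%), against 38.9% of all genes tested. Of these, 109 were raised, where 18.8% of all genes were, and 85 were lowered, where 20.1% of all genes were. Changes of at least 2-fold were called for 13 lncRNAs, 8 raised and 5 lowered, against 3.86% of all genes. Of these 13, 7 had 300 to 600 counts, near the selection threshold. The groups did not overlap for 233 lncRNAs, which is 48.8% of the 477 and equal to the 48.8% among all genes. These shares lie near the background and show nothing particular to lncRNAs. Of the 24 genes that RefSeq calls protein-coding, 16 were called (66.7%), 8 raised and 8 lowered. Of the other 453, 178 were called (39.3%). With scaling by library size alone in place of TMM, 58.8% of all calls were rises instead of 48.3%, and 66.2% instead of 56.2% of the calls among lncRNAs. The median log2 fold change was 0.03, beside 0.01 over all genes tested, and the middle 50% of lncRNAs lay between -0.21 and 0.31. Many of the calls were small: 113 of the 194, or 58.2%, were under 1.5-fold.

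**Figure D1:**
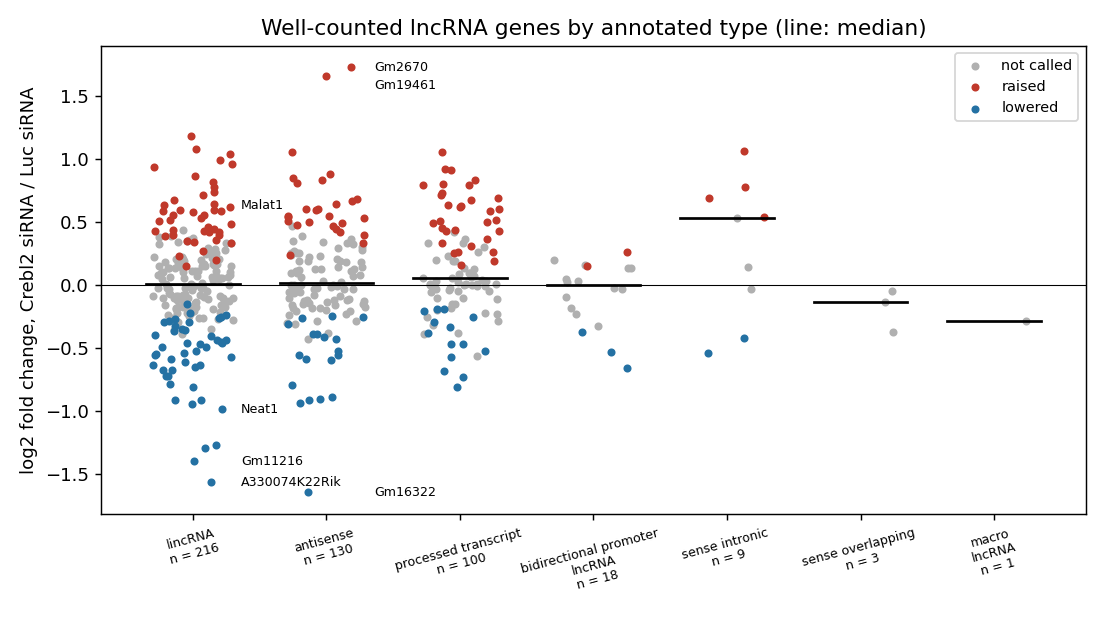
Log2 fold change (Crebl2 siRNA over Luc siRNA) of each of the 477 lncRNA genes, by GENCODE type. Points are genes, red where raised, blue where lowered and grey where not called, and lines are medians. Rises and falls are present in the 5 types with the most genes, and the medians of the 4 types with the most genes lie near 0.

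Rises and falls occurred within each of the main types, as the plot by gene type shows. Of 216 lincRNA genes, which lie between coding genes, 44 were raised and 47 lowered. Of 130 antisense genes, 27 were raised and 19 lowered, and of 100 processed transcripts 32 were raised and 14 lowered. Among the 18 bidirectional promoter lncRNAs, 2 were raised and 3 lowered, and of the 3 sense_overlapping genes and 1 macro lncRNA gene, 0 were called by edgeR, DESeq2 or limma-voom, and 3 had an unadjusted edgeR p under 0.05. Sense_intronic genes lie inside an intron of a coding gene on its own strand. Of 9 such genes, 6 were called (66.7%), against 38.9% of all genes. The 4 raised were Gm42664, 1110028F11Rik, Cep112it and Gm17491, and the 2 lowered were Gm29093 and Gm11611. Cep112it was 1.97 times as high in Crebl2 siRNA replicate 2 as in the mean of the other Crebl2 siRNA libraries. Of the host genes, Slc20a2 around Gm17491 was raised (log2 fold change 0.19) and Srcin1 around Gm11611 lowered (-0.37). Rnf43 around 1110028F11Rik and Ptbp2 around Gm42664 were not called (0.04 and 0.51). The hosts of Cep112it and Gm29093 are not given here. Reads of unspliced host RNA would count toward sense_intronic genes, and their share was not tested.

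After Gm16322, the largest fall was that of A330074K22Rik, a lincRNA gene with no assigned role. It lies on the minus strand of chr8:120204434-120228230 (GRCm38), has a single transcript row of 2489 bases and shares no base with another gene. It was named in the selection with its result known, so its values are a description. It had 381, 380 and 350 counts in Crebl2 siRNA libraries, against 1158, 1081 and 1057 in Luc siRNA libraries. Scaled, these were 13.6, 13.7 and 12.6 CPM in Crebl2 siRNA and 40.6, 38.7 and 39.0 CPM in Luc siRNA libraries. Every Crebl2 siRNA library lay far below every Luc siRNA library, and the replicates of each group lay close together. The log2 fold change was -1.57 (SE 0.07), and it ranged from -1.58 to -1.52 over 14 alternative settings.

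No tested neighbour was called. Of 12 other annotated genes within 250 kb, 3 were tested, and 0 were called by edgeR, DESeq2 or limma-voom or had an unadjusted edgeR p under 0.05. Gse1, a coding gene that starts 226 bases away and runs in the opposite direction, had 146, 178 and 195 counts in Crebl2 siRNA and 179, 137 and 183 counts in Luc siRNA libraries, and its groups overlapped (log2 fold change 0.06, SE 0.14, edgeR adjusted p = 0.782). Zdhhc7, a palmitoyltransferase gene, averaged 111 ± 5.3 CPM in Crebl2 siRNA and 112 ± 1.8 CPM in Luc siRNA libraries (log2 fold change -0.004, edgeR adjusted p = 0.965). A130014A01Rik, a lncRNA that starts 100 bases from Zdhhc7 in the opposite direction, averaged 3.50 ± 0.50 CPM in Crebl2 siRNA and 3.19 ± 0.25 CPM in Luc siRNA libraries (log2 fold change 0.13, edgeR adjusted p = 0.530; SD, n = 3 each). The fold changes of the neighbours were not tested against that of A330074K22Rik.

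**Figure D2:**
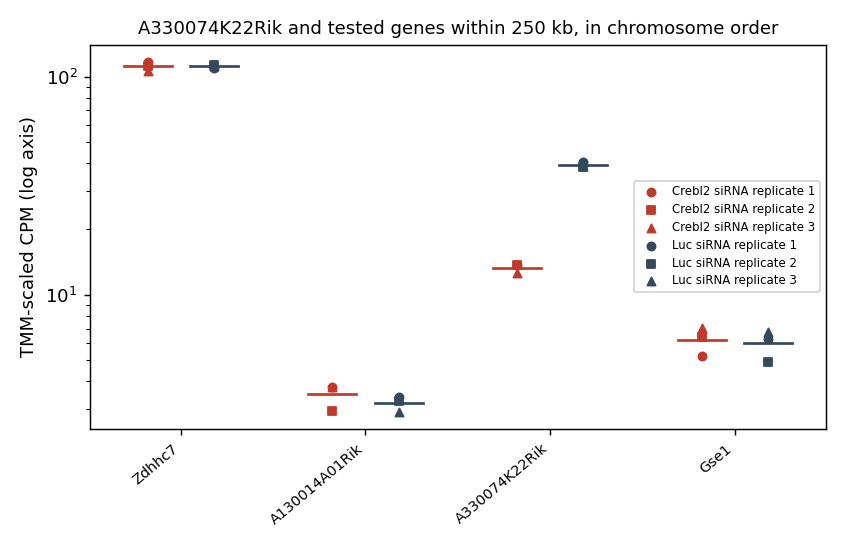
TMM-scaled CPM (log axis) of A330074K22Rik and the 3 tested genes within 250 kb of it, in chromosome order. Points are libraries, Crebl2 siRNA in red and Luc siRNA in blue, and lines are group means. The A330074K22Rik libraries form separate groups at 12.6 to 13.7 and 38.7 to 40.6 CPM, while the groups of the other genes overlap.

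The promoter of A330074K22Rik, the short stretch that it shares with the start of Gse1, is shown because the lncRNA was lowered and the coding gene was not called. The window is RefSeq's (GRCm38.p6), 250 bases before to 50 after the start, at chr8:120228181-120228480 on the minus strand. It was searched on both strands for the cAMP response element TGACGTCA, which CREB proteins bind, and for its partial forms TGACG and CGTCA, which the full element contains. It holds none of these letters, so nothing is in capitals.
A330074K22Rik promoter: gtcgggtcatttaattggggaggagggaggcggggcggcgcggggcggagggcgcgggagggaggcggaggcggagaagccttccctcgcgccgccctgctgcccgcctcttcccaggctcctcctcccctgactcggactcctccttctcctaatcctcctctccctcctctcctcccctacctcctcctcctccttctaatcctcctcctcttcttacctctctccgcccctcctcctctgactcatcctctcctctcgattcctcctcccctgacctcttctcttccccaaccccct
Of the 477 lncRNAs, 267 matched a RefSeq promoter window. Full elements were present in 11 of these windows (4.12%), against 588 of 32851 RefSeq promoter windows (1.79%). By call, they were in 4 of 61 raised, 2 of 49 lowered and 5 of 157 uncalled lncRNAs. A partial form was present in 78 of the 267 windows (29.2%), against 20.8% of all windows. A match is a description of letters and not a binding site.

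Further large falls came from little-known gene models. Gm16322, antisense to the tubulin cofactor-like gene Tbcel, had 1.00, 0.936 and 0.901 CPM in Crebl2 siRNA and 3.43, 2.54 and 2.95 CPM in Luc siRNA libraries (log2 fold change -1.65, SE 0.20, edgeR adjusted p = 5.6e-06). Gm11216, a lincRNA on chromosome 4, had 12.7, 14.5 and 12.2 CPM in Crebl2 siRNA and 38.5, 31.3 and 34.0 CPM in Luc siRNA libraries (-1.40, SE 0.09, edgeR adjusted p = 6.35e-09). Neither gene's groups overlapped. Gm37800 (-1.30) and Gm13790 (-1.27) completed the falls of at least 2-fold. Fam222a, the coding gene nearest to Gm13790, was lowered as well (-0.41).

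AW112010 also fell. It is a lincRNA that is induced in mouse immune cells by inflammatory signals, and a peptide product has been described there. It had 19.2, 20.2 and 23.4 CPM in Crebl2 siRNA and 40.5, 41.6 and 39.2 CPM in Luc siRNA libraries. All Crebl2 siRNA values lay below all Luc siRNA values. The log2 fold change came to -0.95 (SE 0.08, edgeR adjusted p = 7.18e-08). Gm35037, Gm28884, C030037D09Rik (-0.92 each) and Gm16178 (-0.94) fell by similar amounts, and Sh3rf1, the coding gene nearest to Gm16178, was lowered too (-0.28).

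The largest rise was that of Gm2670, which overlaps the gene of the secreted signalling protein Wnt5a on the opposite strand. It had 3.15, 3.71 and 2.34 CPM in Crebl2 siRNA and 1.05, 0.824 and 0.885 CPM in Luc siRNA libraries. The groups were well apart (log2 fold change 1.73, SE 0.22, edgeR adjusted p = 9.9e-06). Wnt5a was raised beside it (1.06). They share no annotated exonic base, but the sources used here do not say if counting used strand, so reads from a Wnt5a intron and from Gm2670 cannot be told apart.

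Gm19461, a lncRNA on the opposite strand of Plekha6, had 2.33, 3.71 and 2.38 CPM in Crebl2 siRNA and 0.981, 0.716 and 0.959 CPM in Luc siRNA libraries (log2 fold change 1.66, SE 0.24, edgeR adjusted p = 3.61e-05). It was 1.58 times as high in Crebl2 siRNA replicate 2 as in the mean of the other Crebl2 siRNA libraries. Its log2 fold change ranged from 1.41 to 1.78 over 14 alternative settings. As for Gm2670, reads from the opposite strand cannot be told apart. 2810414N06Rik, which starts 353 bases from the coding gene Edem3 in the opposite direction, had 7.12, 6.84 and 7.10 CPM in Crebl2 siRNA and 3.15, 3.51 and 3.28 CPM in Luc siRNA libraries (1.08, SE 0.12, edgeR adjusted p = 2.18e-06). Their groups did not overlap, and Edem3, which acts in the degradation of misfolded glycoproteins, was not called (-0.04). The other rises of at least 2-fold were Gm807 (1.19), the intronic Gm42664 (1.07), B230206L02Rik (1.06), Bcas3os2 (1.06) and Gm37323 (1.04). Gm43625 (0.99) and 4930558J18Rik (0.96) followed, and among smaller rises Gm26694 (0.86) and Gm43584 (0.62) had p-values among the 5 smallest. Gm43625 was 1.56 times as high in Crebl2 siRNA replicate 2 as in the mean of the other Crebl2 siRNA libraries. Gm43584 shares bases with the coding gene Fam19a3, and its nearest coding start is that of Ppm1j, which fell (-1.61).

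**Figure D3:**
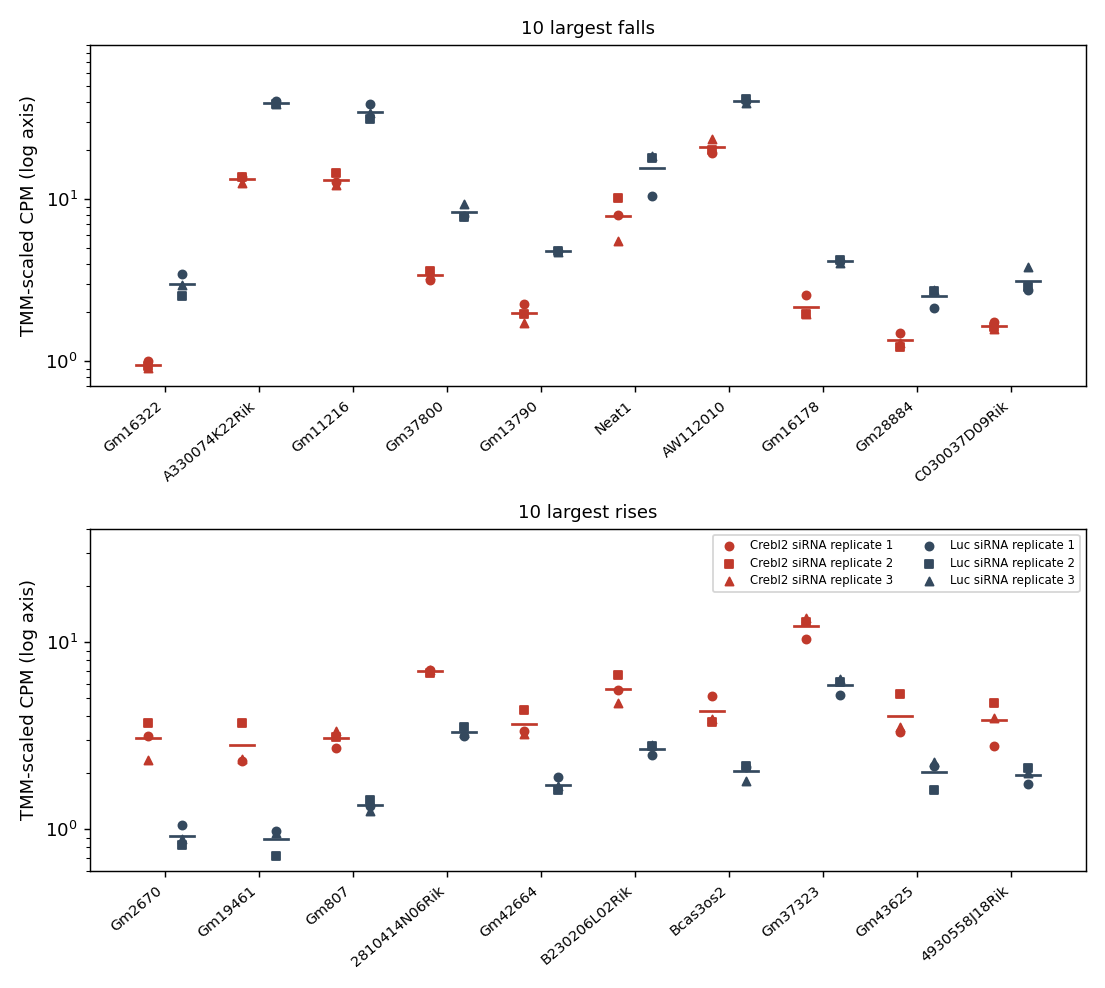
TMM-scaled CPM (log axis) in each library for the 10 lncRNAs with the largest falls (top) and the 10 with the largest rises (bottom) among called genes whose groups do not overlap. Crebl2 siRNA libraries are red and stand left of the blue Luc siRNA libraries, and lines are group means; Luc siRNA means run from 2.54 to 40.4 CPM in the upper panel and from 0.885 to 5.90 CPM in the lower one.

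Neat1 fell. It is the architectural RNA of paraspeckles, nuclear bodies that retain RNAs and proteins, and only its long isoform builds them. Its counts fell on the row of the long isoform of 20771 bases, 17758 of which are unshared. Neat1 shares some exonic bases with another gene. Rows for the short isoform were at 0 counts. Since reads shared by several transcripts were apparently not counted, this 0 does not show that the short isoform was absent. Neat1 lies on the minus strand of chr19:5824708-5845478. Neat1 had 7.94, 10.2 and 5.55 CPM in Crebl2 siRNA libraries, against 10.4, 18.1 and 18.5 CPM in Luc siRNA libraries. The groups did not overlap, although Crebl2 siRNA replicate 2 and Luc siRNA replicate 1 were close. The log2 fold change was -0.99 (SE 0.20, edgeR adjusted p = 0.000858), it was called in each of 14 alternative settings, and it ranged from -1.21 to -0.79. Of 15 tested paraspeckle proteins, 2 rose and 1 fell, with a median log2 fold change of 0.02, where 18.8% of all genes were raised and 20.1% lowered. Tardbp (0.25) and Taf15 (0.17), both RNA-binding proteins, rose, and the cleavage factor subunit Nudt21 fell (-0.23). The call of Nudt21 was lost without Luc siRNA replicate 1 or 3 or Crebl2 siRNA replicate 2 and under library size scaling, and 1 rise in place of 2 was called without Luc siRNA replicate 3.

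Malat1, a nuclear RNA of splicing speckles encoded next to Neat1 at chr19:5795690-5802672 on the minus strand, was called raised, with groups that overlap. It had 229, 524 and 247 CPM in Crebl2 siRNA libraries, against 285, 165 and 193 CPM in Luc siRNA libraries. Crebl2 siRNA replicate 2 was the highest, the other Crebl2 siRNA libraries lay within the range of the Luc siRNA libraries. The log2 fold change was 0.63 (SE 0.23, edgeR adjusted p = 0.0406). It was 0.15 and not called without Crebl2 siRNA replicate 2, 0.48 and not called without Luc siRNA replicate 2, and 0.56 and not called without Luc siRNA replicate 3, and neither DESeq2 (0.63) nor limma-voom (0.57) called it. Of 17 tested splicing factors of nuclear speckles, 4 were raised (Clk1 0.22, Sf3b1 0.18, Srsf7 0.17 and Srsf1 0.17) and Srsf6 was lowered (-0.15), where 38.9% of all genes were called in either direction. The speckle count of rises was 1 without Luc siRNA replicate 2, and the call of Srsf6 was lost without Crebl2 siRNA replicate 2 or 3 or Luc siRNA replicate 2 or 3, under library size scaling and with the replicate number as a block, while 2 factors were lowered without Crebl2 siRNA replicate 1.

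The stretch of chromosome 19 around both RNAs holds 42 other annotated genes within 250 kb of Malat1, of which 17 were tested. Those lowered beside Neat1 included Rnaseh2c (-0.45), Ltbp3 (-0.36), the NF-kappa-B subunit Rela (-0.34), Ap5b1 (-0.24) and Ehbp1l1 (-0.24), and Pcnx3 (0.33) and the DNA polymerase alpha subunit Pola2 (0.28) were raised. Frmd8, the coding gene that starts nearest to Neat1, was not called (0.05). These genes were named after their values were seen.

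Kcnq1ot1, the antisense RNA that silences the paternal copies of an imprinted domain on chromosome 7, followed Malat1 across libraries. It had 11.4, 33.7 and 14.6 CPM in Crebl2 siRNA and 14.6, 9.02 and 9.70 CPM in Luc siRNA libraries, with groups that overlap. It was called raised (log2 fold change 0.84, SE 0.29, edgeR adjusted p = 0.0286), but its log2 fold change was 0.23 and not called without Crebl2 siRNA replicate 2, 0.70 and not called without Luc siRNA replicate 2, and 0.74 and not called without Luc siRNA replicate 3. It was not called by DESeq2 (0.84) or limma-voom (0.70) either. Airn, the imprinted antisense RNA of the Igf2r locus, had 3.97, 8.85 and 4.50 CPM in Crebl2 siRNA and 7.01, 5.26 and 7.45 CPM in Luc siRNA libraries. It too was highest in Crebl2 siRNA replicate 2, its groups overlapped, and it was not called (-0.19, edgeR adjusted p = 0.547); without that library it was called lowered (-0.63). Igf2r itself was raised (0.20).

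These RNAs were high in the library with the low mitochondrial share. Over the 477 lncRNAs, the ratio of Crebl2 siRNA replicate 2 to the mean of the other Crebl2 siRNA libraries had a median of 1.02, with 17 genes higher by at least 1.5-fold and 1 gene lower by at least 1.5-fold. Kcnq1ot1 (2.60), Malat1 (2.20) and Airn (2.09) had the highest ratios. The part of the mitochondrial share in this was not tested.

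**Figure D4:**
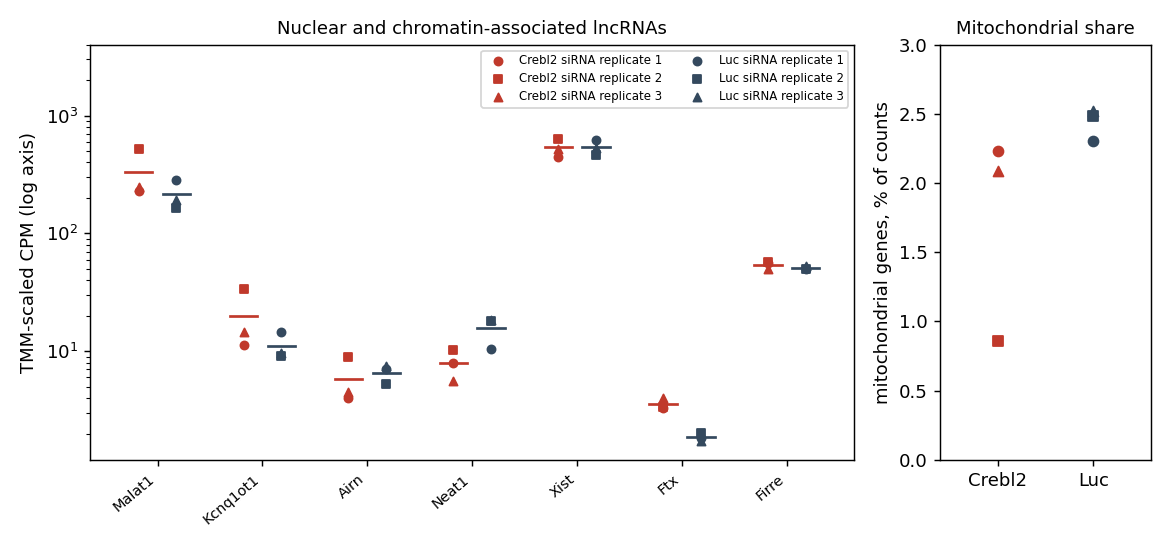
TMM-scaled CPM (log axis) of 7 nuclear or chromatin-associated lncRNAs in each library (left), and the share of counts on genes of the mitochondrial genome in percent (right). Crebl2 siRNA is red and Luc siRNA blue, symbols mark the replicate number, and lines are group means; Crebl2 siRNA replicate 2 is the highest library for Malat1, Kcnq1ot1, Airn and Xist and the lowest for the mitochondrial share.

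Of the lncRNAs of the X inactivation center, Ftx rose and Xist was not called. Xist, which coats and silences an X chromosome, had 448, 639 and 523 CPM in Crebl2 siRNA and 618, 460 and 535 CPM in Luc siRNA libraries, and the groups overlapped (log2 fold change -0.002, SE 0.10, edgeR adjusted p = 0.992). Ftx, which lies upstream of Xist and is known as a positive regulator of it, had 3.33, 3.35 and 4.04 CPM in Crebl2 siRNA and 1.82, 2.04 and 1.73 CPM in Luc siRNA libraries. All Ftx values in Crebl2 siRNA libraries were higher than all in Luc siRNA libraries (0.93, SE 0.16, edgeR adjusted p = 0.000222). Ftx shares exonic bases with another gene, and its body overlaps that of Jpx on the opposite strand, which was not called (0.41). The part of shared reads in its change was not tested. Firre, an X-linked nuclear repeat RNA, was not called with all libraries (0.10) and was called raised without Crebl2 siRNA replicate 3 (0.16).

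Of the lncRNAs tied to growth and the p53 response, Mir22hg, Norad, Tug1 and Trp53cor1 fell. Of 29 listed names, 15 were tested, 4 fell and 1 rose, a number of falls close to the 20.1% lowered among all genes; the one that rose, the snoRNA host Snhg1 (1.01), lies under the threshold of 300 counts. Norad, listed as 2900097C17Rik, binds Pumilio proteins and guards chromosome stability. It had 31.2, 32.4 and 31.6 CPM in Crebl2 siRNA and 42.5, 36.8 and 36.7 CPM in Luc siRNA libraries, with no overlap (log2 fold change -0.29, SE 0.07, edgeR adjusted p = 0.00372). Trp53cor1 (lincRNA-p21), a p53 target next to Cdkn1a, averaged 16.4 ± 1.0 CPM in Crebl2 siRNA and 19.6 ± 0.71 CPM in Luc siRNA libraries (-0.25, SE 0.08, edgeR adjusted p = 0.0166), while Cdkn1a was not called (0.08). Its call was lost without Luc siRNA replicate 2 or 3 (-0.24 each) and under library size scaling (-0.20). Tug1 averaged 15.9 ± 1.3 CPM in Crebl2 siRNA and 19.1 ± 0.44 CPM in Luc siRNA libraries (-0.26, SE 0.08, edgeR adjusted p = 0.0169; SD, n = 3 each), a call lost without Crebl2 siRNA replicate 2 (-0.20) or Luc siRNA replicate 2 (-0.25). Pvt1, the neighbour of Myc, was not called with all libraries (-0.17) and was called lowered without Crebl2 siRNA replicate 3 (-0.25) or on single transcript rows (-0.24).

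Host genes of snoRNAs moved in both directions. SnoRNAs guide chemical modification of ribosomal RNA, and in mammals most are cut from introns of a host whose spliced RNA is often degraded by nonsense-mediated decay. Of 14 such hosts among the 477, 4 were raised, 3 lowered and 7 not called, with a median log2 fold change of 0.08. Of 180 protein-coding snoRNA hosts tested, 42 rose and 24 fell, with a median of 0.05. Among all genes, 18.8% were raised and 20.1% lowered. Both medians lie near the 0.01 over all genes tested.

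Cct6a, host of Snora15, had 1172, 1195 and 1299.7 CPM in Crebl2 siRNA libraries, against 1020.3, 1018 and 1014 CPM in Luc siRNA libraries (log2 fold change 0.26, SE 0.05, edgeR adjusted p = 0.00045). AI506816, around a small RNA annotated as Mir3096, had 185, 173 and 166 CPM in Crebl2 siRNA and 136, 137 and 142 CPM in Luc siRNA libraries (0.34, SE 0.05, edgeR adjusted p = 9.65e-05). 2700038G22Rik, host of Snord93, had 7.55, 8.21 and 6.81 CPM in Crebl2 siRNA and 3.85, 5.01 and 5.27 CPM in Luc siRNA libraries (0.68, SE 0.13, edgeR adjusted p = 0.000633). The groups of these 3 did not overlap, and each was called in all 14 alternative settings. Gm15832, host of Snord89, was also called raised (0.62), but not without Crebl2 siRNA replicate 2 (0.53) or Luc siRNA replicate 1 (0.50), and it shares bases with the coding gene Rnf149 on its strand.

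Of the lowered hosts, Snhg6, host of Snord87, had 6.37, 5.98 and 7.57 CPM in Crebl2 siRNA and 8.20, 8.31 and 10.4 CPM in Luc siRNA libraries (log2 fold change -0.43, SE 0.12, edgeR adjusted p = 0.0103). Its groups did not overlap, but it was not called without Crebl2 siRNA replicate 2 (-0.36) or Luc siRNA replicate 3 (-0.32). Snhg17 had 19.8, 19.3 and 17.8 CPM in Crebl2 siRNA and 21.5, 21.4 and 24.96 CPM in Luc siRNA libraries (-0.25, SE 0.08, edgeR adjusted p = 0.021), and its call was lost without Crebl2 siRNA replicate 2 (-0.26) or 3 (-0.21), without Luc siRNA replicate 3 (-0.18) and under library size scaling (-0.20). 2410006H16Rik, host of Snord49a, Snord49b and Snord65, was called lowered (-0.19) with groups that overlap, and was not called without Crebl2 siRNA replicate 2 (-0.17) or Luc siRNA replicate 2 (-0.13) or under library size scaling (-0.14).

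The hosts not called were Zfas1, Epb41l4aos, Snhg15, Snhg20, Snhg5, 1810032O08Rik and Gas5. Zfas1, host of Snord12, had 512, 509 and 535 CPM in Crebl2 siRNA and 539, 606 and 529 CPM in Luc siRNA libraries, which overlap (log2 fold change -0.11, edgeR adjusted p = 0.137). Snhg15, host of Snora9, was at 0.19 with all libraries and called raised without Crebl2 siRNA replicate 3 (0.31). Gas5, the growth-arrest host of 10 annotated small RNAs, averaged 2.83 ± 0.70 CPM in Crebl2 siRNA and 2.59 ± 0.60 CPM in Luc siRNA libraries (SD, n = 3 each); its counted row has only 41 unshared bases, so little of the gene was measured.

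Among proteins that assemble snoRNAs and those that degrade RNA, the members called were nearly all raised, by small amounts, where 18.8% of all genes were raised and 20.1% lowered. Of 19 tested snoRNP proteins, 8 rose and 0 were lowered in edgeR, DESeq2 or limma-voom (1 at an unadjusted edgeR p under 0.05), with a median log2 fold change of 0.18. Gar1, of the particles that guide pseudouridylation, rose most clearly (102 ± 4.0 CPM in Crebl2 siRNA and 79.4 ± 2.3 CPM in Luc siRNA libraries, log2 fold change 0.36, edgeR adjusted p = 4.93e-05), and Nolc1 (0.22), Nop58 (0.31) and Znhit3 (0.25) rose too. The count of rises was 5 without Crebl2 siRNA replicate 2, Luc siRNA replicate 1 or Luc siRNA replicate 3. Of 17 tested factors of nonsense-mediated decay, 10 rose and 0 were lowered in edgeR, DESeq2 or limma-voom (0 at an unadjusted edgeR p under 0.05), with a median of 0.18, among them the helicase Upf1 (0.20), Upf3b (0.33), the endonuclease Smg6 (0.25) and its partner Smg5 (0.25). That count was 5 without Luc siRNA replicate 3, and 1 fall was called without Crebl2 siRNA replicate 3. Of 17 tested nuclear RNA decay factors, 9 rose, among them the exosome subunits Exosc9 (0.26), Exosc7 (0.27) and Dis3 (0.34), and the exosome cofactor Mphosph6 fell (-0.30).

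Some lncRNAs carry miRNAs. Of 12 such hosts among the 477, 2 were raised and 4 lowered, beside 18.8% raised and 20.1% lowered among all genes. Mir22hg, host of Mir22, had 8.73, 8.21 and 6.99 CPM in Crebl2 siRNA and 13.6, 11.997 and 14.1 CPM in Luc siRNA libraries, with no overlap (log2 fold change -0.73, SE 0.10, edgeR adjusted p = 3.82e-05). 3110039I08Rik, whose body holds Mir100, Mirlet7a-2 and Mir125b-1, had 10.8, 14.97 and 10.5 CPM in Crebl2 siRNA and 6.20, 6.41 and 7.71 CPM in Luc siRNA libraries, also with no overlap (0.84, edgeR adjusted p = 0.000131). Ftx, described above, is the host of Mir374b and Mir421. Zswim6 (-0.34), Gm11613 (-0.38) and Mir670hg (-0.53) were the other lowered hosts. Hosts are kept here under their GENCODE type, which, as for Cct6a, can hold genes that RefSeq calls protein-coding. Mature miRNAs are too short for such libraries and were not analysed here. The RefSeq (GRCm38.p6) mature sequences of the clearest hosts are shown to identify what they carry, with the seed (bases 2 to 8) in capitals. The 14 mature sequences found for 4 of the 6 called hosts have 14 distinct seeds.
mmu-miR-22-3p (host Mir22hg): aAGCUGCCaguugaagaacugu
mmu-miR-100-5p (host 3110039I08Rik): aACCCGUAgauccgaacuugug
mmu-miR-125b-5p (host 3110039I08Rik): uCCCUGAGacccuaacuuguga
mmu-miR-374b-5p (host Ftx): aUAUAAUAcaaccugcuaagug

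Some lncRNAs and the coding genes nearest to them were both called. For 328 lncRNAs the nearest coding gene, by distance between starts, was tested. In 59 pairs both genes were called, in the same direction in 37 and in opposite directions in 22. Of the 477 lncRNAs 40.7% were called, and of the protein-coding genes tested 41.2%. Unrelated genes would therefore also give pairs with both called, and an excess over that was not tested. Of 120 divergent pairs, with starts within 2 kb on opposite strands, 14 moved the same way and 7 opposite ways. Bodies of divergent pairs may overlap too. Antisense pairs are those that overlap on opposite strands with starts further apart. Of 43 antisense pairs, 6 moved the same way and 0 opposite ways, and of 154 pairs lying apart, 17 and 14. For the antisense pairs, DESeq2 gave 4 and 0, limma-voom 6 and 0, and unadjusted edgeR p-values under 0.05 gave 9 and 1. As a description across genes, Pearson's r of the log2 fold changes was 0.28 in divergent, 0.50 in antisense and 0.02 in apart pairs. The values of a pair come from the same libraries, overlapping genes can share reads where strand was not used, and the arrangements were not tested against each other.

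**Figure D5:**
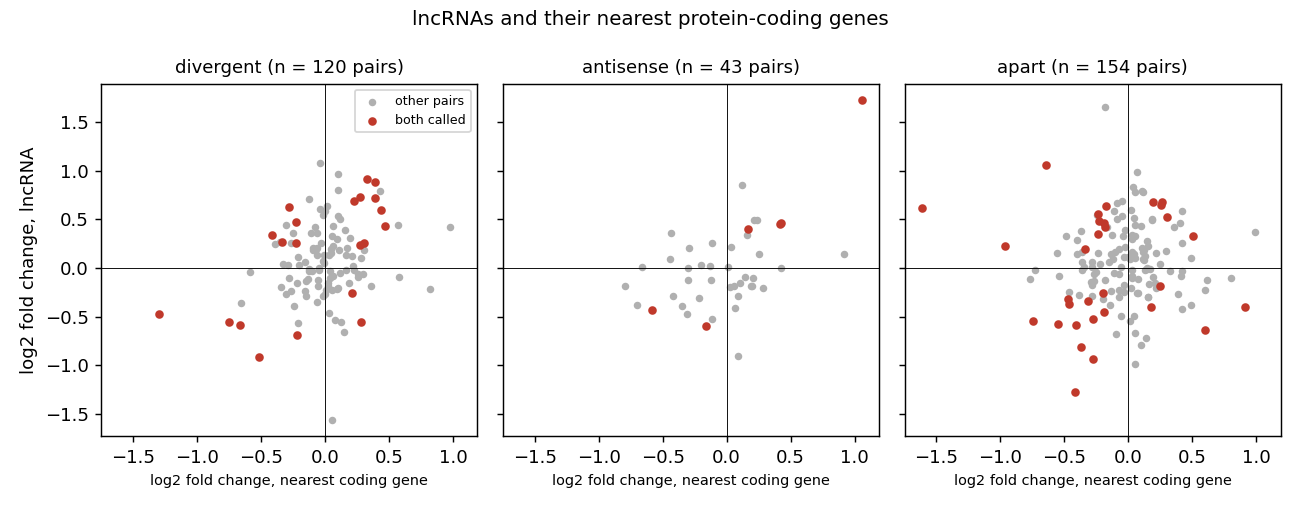
Log2 fold change (Crebl2 siRNA over Luc siRNA) of each lncRNA (vertical) against that of its nearest protein-coding gene (horizontal), for 120 divergent, 43 antisense and 154 apart pairs; red pairs have both genes called. In the antisense panel the 6 red pairs lie in the same-direction quadrants, with Gm2670 and Wnt5a at the upper right.

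The pairs named next were picked after their values were seen. C030037D09Rik starts 132 bases from Msi2, an RNA-binding protein of stem and progenitor cells, and runs the other way. It had 1.75, 1.62 and 1.59 CPM in Crebl2 siRNA and 2.73, 2.86 and 3.80 CPM in Luc siRNA libraries, with no overlap (log2 fold change -0.92, SE 0.18, edgeR adjusted p = 0.000665), and Msi2 was lowered with it (-0.51). On the raised side, AV099323 (0.60) starts 43 bases from Pcna (0.43), the sliding clamp of DNA replication, C130036L24Rik (0.91) starts 174 bases from the nucleolin gene Ncl (0.33), and Gm10069 (0.68) starts 80 bases from the chaperone gene Fkbp4 (0.23). Among antisense pairs, Gm29539 (-0.43) and Wnt6 (-0.59) fell together. Opposite calls were made for Cct6a and Psph, the phosphatase of serine synthesis (0.26 and -0.33), for Tug1 and Morc2a (-0.26 and 0.21), and for 1600020E01Rik and Pcbp1 (0.48 and -0.23).

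The start regions of C030037D09Rik, lowered, and 4930558J18Rik, raised, are shown because both hold the full cAMP response element, in capitals, although their lncRNAs moved in opposite directions. The coding gene nearest to 4930558J18Rik, 1700066M21Rik, starts 76 bases away and was not called (0.10). Windows are RefSeq's (GRCm38.p6), at chr11:88718393-88718692 on the plus strand and chr1:57377495-57377794 on the minus strand.
C030037D09Rik promoter: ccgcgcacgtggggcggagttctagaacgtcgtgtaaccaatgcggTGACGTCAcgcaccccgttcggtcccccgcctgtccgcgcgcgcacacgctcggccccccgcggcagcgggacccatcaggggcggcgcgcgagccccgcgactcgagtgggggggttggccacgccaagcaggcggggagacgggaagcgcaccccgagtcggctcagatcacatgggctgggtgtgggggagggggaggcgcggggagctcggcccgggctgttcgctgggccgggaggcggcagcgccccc
4930558J18Rik promoter: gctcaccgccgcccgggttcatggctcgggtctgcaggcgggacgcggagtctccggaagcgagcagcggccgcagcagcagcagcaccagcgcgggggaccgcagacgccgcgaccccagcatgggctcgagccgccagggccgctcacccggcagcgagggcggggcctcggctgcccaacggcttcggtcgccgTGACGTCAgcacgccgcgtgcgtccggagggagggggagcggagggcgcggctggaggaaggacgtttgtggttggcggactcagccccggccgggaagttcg

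The word GAAATGT was counted in the main transcript of each lncRNA, on the sense strand, since earlier results of these data had drawn attention to it. It was present in 16 of 109 raised (14.7%), 16 of 85 lowered (18.8%) and 52 of 283 uncalled lncRNAs (18.4%). Per kilobase of transcript, there were 0.0817 occurrences in raised, 0.118 in lowered and 0.112 in uncalled lncRNAs. Of the 29 occurrences in raised lncRNAs, 13 lie in Kcnq1ot1, whose transcript has 93092 bases and whose call was lost in several settings. Lowered and uncalled lncRNAs thus held it at similar rates. A330074K22Rik holds no copy, Neat1 holds 3 in 20771 bases, and Mir22hg and Malat1 hold 1 each. Sites of the lowered Neat1 and Mir22hg and of Malat1 are shown with the word in capitals (GENCODE M21 transcript sequence, GRCm38).
Neat1, transcript position 3049: tgtggaatgggGAAATGTgaagaaagctg
Neat1, transcript position 3758: cattaaagctgGAAATGTtactacttaga
Mir22hg, transcript position 1181: ttgctgtcttaGAAATGTatcctaaaata
Malat1, transcript position 5361: actggcaagtgGAAATGTtttgaacagtt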

How the data were processed

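RNA-seq counts of 6 Hepa1-6 libraries, 3 with Crebl2 siRNA and 3 with Luc siRNA, were used as the authors deposited them: raw counts of reads on Ensembl transcripts, with 58611 rows in each library. Trim Galore, TopHat and HTSeq and the builds mm9 and GRCm38 are named in the submitters' processing notes, and their versions, roles and settings are not given in the sources used here, nor is the use of strand. Rows were matched to GENCODE M21 (58264 matched, 347 did not, at most 0.0497% of a library) and summed per gene. Genes were tested in edgeR 4.0.16 (R 4.3.3) with TMM, filterByExpr, glmQLFit and glmQLFTest, two-sided, Benjamini-Hochberg over 11616 genes. CPM were computed here from the deposited counts. Standard errors (SE) are the fold change divided by the root of its test statistic. The fit was tested on simulated counts.

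The lncRNAs, gene lists, motifs and tests were chosen with earlier results of these data known. Genes were named by a rule: Crebl2, Malat1, Neat1, A330074K22Rik and its tested neighbours, snoRNA hosts, listed lncRNAs, the 10 largest rises, the 10 largest falls and, each way, the 5 smallest p (called, groups apart), the 5 with most counts, those at the threshold, their nearest coding genes, and up to 4 called members with the smallest p per list. Other genes, among them miRNA hosts, sense_intronic genes and pairs, were chosen after their values were seen. Alternatives were RLE and library size scaling, no filter, DESeq2 1.42.0, limma-voom (limma 3.58.1), a replicate block, each library left out, transcript rows, mitochondrial genes left out, other count thresholds and other sets of lncRNAs. Sequences come from RefSeq tables of GRCm38.p6 and GENCODE M21 transcripts.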

Additional observations from a re-analysis of the deposited data

How the results depend on the processing

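Over the alternatives that keep the 477 lncRNAs, 137 to 197 were called, 78 to 127 raised and 59 to 85 lowered, and 13 to 19 changed at least 2-fold, beside 3639 to 4686 calls among all genes. In 14 alternative fits, 0 of the lncRNAs called both there and among the 194 changed sign. Leaving out 1 library at a time gave 137 to 193 called, 78 to 110 raised, 59 to 83 lowered, 13 to 19 changed at least 2-fold and medians of 0.000462 to 0.06797. Without Crebl2 siRNA replicate 2, 146 were called, 141 of them among the 194. The median log2 fold change was 0.077 under library size scaling. A minimum of 600 counts left 68 raised, 6 changed at least 2-fold and a median of -0.018, and a minimum of 150 counts gave 30 changed at least 2-fold and a median of 0.058. Without lncRNAs that share exonic bases, 69 were raised. Without those overlapping a protein-coding gene body, a set chosen after seeing the data, 112 were called, 57 raised and 55 lowered, and 8 changed at least 2-fold, from fewer genes. The share of counts on the lncRNAs differed by 0.0267 to 0.0683 percentage points.

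Same-numbered libraries did not deviate together (correlations -0.133, -0.0443 and -0.0847, beside -0.016 to 0.0951 for different numbers). Deviations from means of 3 libraries cannot decide whether equal numbers mark a shared batch, and the labels do not say. With the replicate block, 171 lncRNAs were called, all of them among the 194, with 98 raised, 73 lowered and 13 changed at least 2-fold.

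Of 183 lncRNAs with 300 to 600 counts, 62 were called (33.9%), against 46 of 81 with at least 3000 counts (56.8%). Genes with few unshared bases, such as Gas5, and lncRNAs overlapping a coding gene are the least certain.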
